A study of Mus musculus with 20 samples.

Results

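Mest, Sfrp5, Npr3 and Bmp3 are 4 genes, of 36611 in the table, that are known to mark the expansion of white adipose tissue. They were chosen by their measured RNA levels, which differed between the diets and ran together over the 20 libraries, so their difference between diets and their correlations are given below as descriptions without a test. Inguinal fat (iWAT, a subcutaneous white depot) was taken from female mice aged 6 months, labelled C57BL/6, and its RNA was sequenced in 4 groups of 5 libraries. Control littermates carried the floxed Tmem120a allele without Cre, and Ad-Tmem120a-/- mice (below, knockout mice) carried it together with a Cre recombinase driven by the adiponectin gene, so that Tmem120a, which encodes a protein of the nuclear envelope, is removed in adipocytes while the other cells of the fat pad keep it. Per the methods the floxed line was on C57BL/6 N Tac and the Cre line on C57BL/6 J, so the mice carry both substrains. Both genotypes were fed for 15 weeks either a diet low in fat (LFD, with 10.5% fat) or a diet rich in it (HFD, with 58% fat).

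White fat grows when adipocytes enlarge and when new ones form, and the 4 genes act at different places in that process. Mest (mesoderm specific transcript) is an imprinted gene, expressed from the paternal copy, and encodes a membrane protein of the endoplasmic reticulum with a hydrolase fold. Its level in fat of young and overfed mice is known to vary widely even among inbred animals. Sfrp5 is a secreted frizzled-related protein that binds Wnt ligands, which hold back fat cell formation. Npr3 is the natriuretic peptide receptor without a cyclase domain, known as the clearance receptor because it removes the peptides that drive lipolysis through Npr1. Bmp3 is a secreted ligand of the bone morphogenetic protein (BMP) family that is known to oppose the other BMPs.

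All coordinates are on mouse assembly NCBIM37 (mm9). Mest (ENSMUSG00000051855) lies on the plus strand at chr6:30673547-30698457 and has 13 annotated transcripts. Sfrp5 (ENSMUSG00000018822) lies on the minus strand at chr19:42272461-42276742 with 1 transcript. Npr3 (ENSMUSG00000022206) lies on the minus strand at chr15:11769651-11835429 with 2 transcripts, and Bmp3 (ENSMUSG00000029335) on the plus strand at chr5:99283458-99309979 with 1 transcript. No member is thus a neighbour of another. The 150 bases in front of their annotated starts are shown because the members moved together and because Mest and Npr3 each have a second start. They are printed 5′ to 3′ on the strand of the gene, and capitals mark the matches of GGGCGG, the GC box.
Mest, main start, chr6:30687913-30688062, plus strand: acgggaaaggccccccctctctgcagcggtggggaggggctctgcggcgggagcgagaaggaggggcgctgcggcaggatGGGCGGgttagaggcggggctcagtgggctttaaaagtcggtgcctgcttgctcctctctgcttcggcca
Mest, upstream start, chr6:30673397-30673546, plus strand: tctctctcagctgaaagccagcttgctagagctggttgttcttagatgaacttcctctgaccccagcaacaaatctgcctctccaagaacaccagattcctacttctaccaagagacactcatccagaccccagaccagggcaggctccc
Sfrp5, chr19:42276743-42276892, minus strand: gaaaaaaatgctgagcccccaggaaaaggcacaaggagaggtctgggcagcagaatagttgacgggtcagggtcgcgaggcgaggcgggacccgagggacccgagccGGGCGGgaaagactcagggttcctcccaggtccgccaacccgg
Npr3, full-length start, chr15:11835430-11835579, minus strand: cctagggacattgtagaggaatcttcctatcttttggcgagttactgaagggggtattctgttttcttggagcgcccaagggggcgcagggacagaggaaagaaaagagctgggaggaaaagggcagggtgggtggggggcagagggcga
Npr3, internal start, chr15:11820744-11820893, minus strand: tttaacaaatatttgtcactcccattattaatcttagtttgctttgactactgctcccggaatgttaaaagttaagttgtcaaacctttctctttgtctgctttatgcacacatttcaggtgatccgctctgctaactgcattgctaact
Bmp3, chr5:99283308-99283457, plus strand: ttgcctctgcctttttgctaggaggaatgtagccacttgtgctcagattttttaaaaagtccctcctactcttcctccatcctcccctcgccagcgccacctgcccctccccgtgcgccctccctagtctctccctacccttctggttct

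Of 6 motifs searched on both strands, only the GC box was found in these windows, once at the main start of Mest (bases 70 to 65 before the start) and once at Sfrp5 (bases 43 to 38). Among 22377 windows of the same length in front of protein-coding genes, 35.4% held GGGCGG. The motifs without a match were TATAAA (7.88% of all windows), CCAAT (26.1%), TTNNGCAA (5.01%), AGGTCA (7.52%) and CTTTGAT (1.62%). Base composition differed between the windows. The main start of Mest and that of Sfrp5 each held 11 CpG, with 68.7% and 64.7% G and C, against a median of 6 CpG and 56.7% over all windows. Fewer than 11 CpG were held by 68% of all windows. The upstream start of Mest held 0 CpG, the internal start of Npr3 held 2 at 36.7% G and C, and the other starts of Npr3 and Bmp3 held 4 each.

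Tmem120a was lower in whole iWAT of knockout mice over both diets (log2 fold change of -1.65, SE 0.24, adjusted p = 0.004522, edgeR's quasi-likelihood test with Benjamini-Hochberg adjustment). The library labelled knockout HFD replicate 21 held Tmem120a at 89.7 TPM (transcript abundance corrected for length and scaled to the same total in every library), within the control range of 83.3 to 195.7 TPM on that diet. The library labelled knockout LFD replicate 7 held 74.0 TPM, within the control range of 57.9 to 131.9 TPM. Over the whole series libraries totalled 54605101 to 92387737 estimated counts, and the members held between 232 and 315544 counts in a library. The summed TPM of 12 white adipocyte markers lay between 17181 and 35354 in every library. Muscle fibre RNA was uneven, with a summed TPM of 10 fibre genes between 6.91 and 49.7 in control mice on HFD, between 7.23 and 3221 in control mice on LFD, where replicate 5 was the highest, and between 12.4 and 1412 in knockout mice. In whole tissue, fewer cells of a type and less RNA per cell cannot be told apart.

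Mest was low to moderate on LFD and among the abundant transcripts of iWAT on HFD. In control mice on LFD its level was 52.3, 63.7, 15.1, 4.22 and 174 TPM in replicates 1 to 5, and in control mice on HFD it was 429, 627, 523, 565 and 737 TPM in replicates 11 to 15. The groups did not overlap, and the means were 61.9 ± 67.4 and 576 ± 115 TPM (SD, n = 5 each), a ratio of 9.31. In knockout mice Mest was at 9.27, 26.7, 60.1, 16.4 and 22.7 TPM on LFD (replicates 6 to 10) and at 213, 480, 462, 70.0 and 742 TPM on HFD (replicates 17 to 21). Again no HFD library fell into the LFD range, although HFD replicate 20, at 70.0 TPM, was close to the highest LFD library at 60.1 TPM. The means were 27.03 ± 19.6 and 393 ± 260 TPM, a ratio of 14.6. The spread within control LFD, 41.2 between its highest and lowest library, exceeded the ratio between the diets, whereas within control HFD it was 1.72.

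Sfrp5 was the lowest of the 4 on LFD. Control mice held 12.8, 8.88, 2.56, 1.25 and 17.3 TPM on LFD and 28.0, 51.5, 51.7, 41.7 and 32.1 TPM on HFD. These groups did not overlap (8.56 ± 6.79 against 41.0 ± 10.9 TPM, SD, n = 5), a ratio of 4.79. Knockout mice held 2.08, 4.07, 9.17, 2.56 and 2.77 TPM on LFD and 28.4, 25.4, 31.6, 3.13 and 69.0 TPM on HFD. Here HFD replicate 20, at 3.13 TPM, fell inside the LFD range and the other 4 HFD libraries lay above it (4.13 ± 2.91 against 31.5 ± 23.8 TPM, a ratio of 7.63).

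Npr3 was the most abundant of the 4 in TPM, a scale that corrects for transcript length. Control mice held 808, 350, 171, 31.97 and 479 TPM on LFD and 692, 877, 824, 871 and 1522 TPM on HFD. 1 LFD library, replicate 1, lay above the lowest HFD library (368 ± 299 against 957 ± 324 TPM, SD, n = 5), and the ratio of means was 2.60. Knockout mice held 280, 179, 318, 512 and 465 TPM on LFD and 510, 1518, 1023, 575 and 925 TPM on HFD. The groups touched at 512 and 510 TPM (351 ± 136 against 910 ± 404 TPM, a ratio of 2.59).

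Bmp3 differed least between the diets. Control mice held 26.9, 15.6, 10.5, 3.97 and 37.1 TPM on LFD and 33.5, 41.9, 48.3, 33.3 and 40.8 TPM on HFD. The LFD library with the most Mest, replicate 5, lay within the HFD range (18.8 ± 13.2 against 39.6 ± 6.32 TPM, SD, n = 5), and the ratio of means was 2.10. Knockout mice held 13.5, 13.6, 17.8, 18.6 and 21.7 TPM on LFD and 44.3, 35.0, 37.7, 14.1 and 58.0 TPM on HFD. HFD replicate 20 was again inside the LFD range (17.02 ± 3.496 against 37.8 ± 16.0 TPM, a ratio of 2.22).

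**Figure D1:**
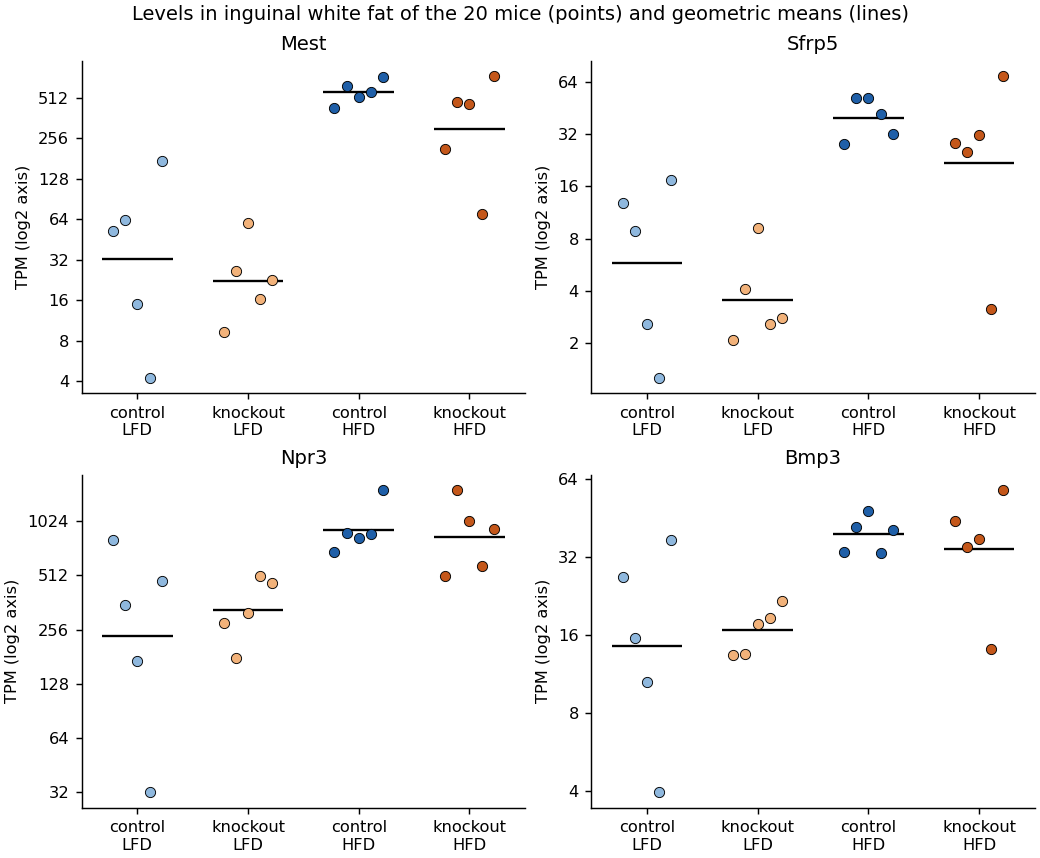
TPM of Mest, Sfrp5, Npr3 and Bmp3 on a log2 axis in each of the 20 libraries (points), by genotype and diet, with the geometric mean of each group (lines). Mest on HFD lies between 70.0 and 742 TPM, above every LFD library of the same genotype, whereas 1 knockout HFD library lies low in Sfrp5 and Bmp3.

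Among the members the mean levels ran Npr3, Mest, Bmp3, Sfrp5 on LFD in both genotypes. On HFD Npr3 and Mest were again first, while Sfrp5 and Bmp3 were at 41.0 ± 10.9 and 39.6 ± 6.32 TPM in control mice and at 31.5 ± 23.8 and 37.8 ± 16.0 TPM in knockout mice, which are differences within their spread. The HFD libraries of Mest and Npr3 overlapped in both genotypes, with Mest up to 737 TPM and Npr3 down to 692.5 TPM in control mice, and with Mest up to 742 TPM and Npr3 down to 510 TPM in knockout mice.

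Expressed as log2 fold changes of HFD over LFD from edgeR on counts, Mest was higher by 3.10 (SE 0.73) in control mice and by 3.73 (SE 0.61) in knockout mice. Sfrp5 was higher by 2.15 (SE 0.57) and 2.86 (SE 0.62), Npr3 by 1.17 (SE 0.54) and 1.17 (SE 0.31), and Bmp3 by 0.96 (SE 0.42) and 1.11 (SE 0.30), in control and knockout mice respectively. The order from Mest to Bmp3 was the same in both genotypes, but the last pair differed by less than its SE. Mest was not the largest value of all genes. It ranked 57 of 15311 by log2 fold change in control mice and 50 of 15705 in knockout mice. By the mean difference of log2(TPM + 1), which damps weakly expressed genes, it ranked 2 in control mice and 3 in knockout mice. Genes whose HFD libraries all lay above all LFD libraries, as Mest and Sfrp5 did in control mice, made up 8.32% of those tested there (1.46% lay wholly below) and 5.01% in knockout mice, where Mest was the only member of this kind.

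Single libraries moved these values. Without control LFD replicate 4, which was the lowest of all 20 libraries in each of the 4 genes, the control values were 2.80 for Mest, 1.86 for Sfrp5, 0.88 for Npr3 and 0.71 for Bmp3. Without control LFD replicate 5, the library with the most muscle RNA, they were 3.95, 2.56, 1.27 and 1.33. Without knockout HFD replicate 20, the lowest of its group in Mest, Sfrp5 and Bmp3, the knockout values were 3.99, 3.15, 1.31 and 1.32. The direction was the same in each of these fits.

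The difference of the diet effects, knockout minus control, was 0.61 (SE 0.94) for Mest, 0.70 (SE 0.86) for Sfrp5, -0.02 (SE 0.66) for Npr3 and 0.13 (SE 0.55) for Bmp3. Each was smaller than its SE and is given without a test.

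**Figure D2:**
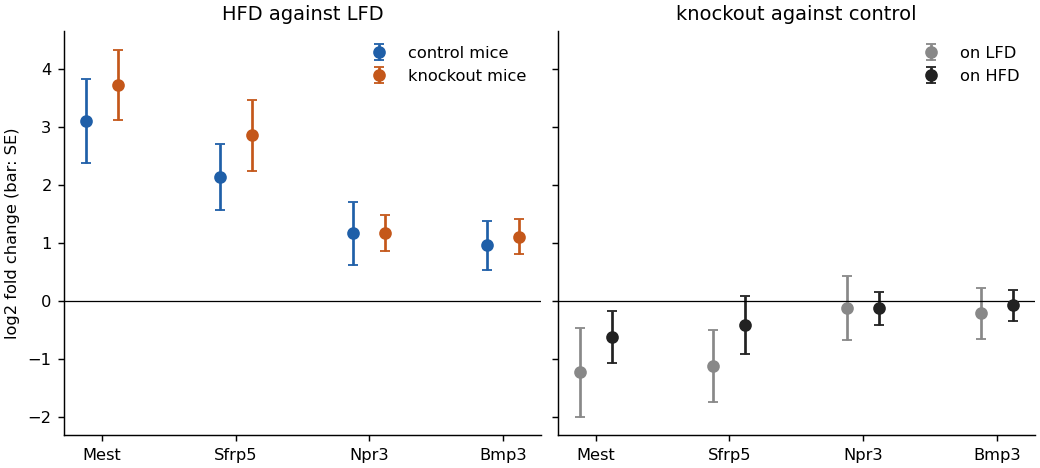
Log2 fold changes of the 4 genes from edgeR, with SE as bars, for HFD against LFD in control and knockout mice (left) and for knockout against control on LFD and on HFD (right). The diet values run from 3.73 for Mest to 0.96 for Bmp3, and the genotype values lie between -1.23 and -0.07.

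The comparison of genotypes asked whether loss of Tmem120a in adipocytes moved the members at a given diet. None of the 4 was called. On HFD, where 1 of 15228 genes was called at an adjusted p under 0.1 (0.00657%), the log2 fold change of knockout over control was -0.61 (SE 0.44) for Mest, -0.41 (SE 0.50) for Sfrp5, -0.12 (SE 0.28) for Npr3 and -0.07 (SE 0.27) for Bmp3, each with an adjusted p of 0.9993. On LFD, where 1 of 15717 genes was called (0.00636%), the values were -1.23 (SE 0.76) for Mest, -1.11 (SE 0.63) for Sfrp5, -0.12 (SE 0.55) for Npr3 and -0.21 (SE 0.44) for Bmp3, with adjusted p between 0.9293 and 0.9768 by edgeR. An unadjusted p under 0.05 was reached by 709 and 803 genes on HFD and LFD, and by none of the 4 members. None of them was called by DESeq2 or limma either. The genotypes overlapped in each member on both diets, where 0.538% of genes lay wholly higher and 0.151% wholly lower in knockout mice on HFD, and 1.3% and 0.102% on LFD.

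Over both diets in 1 fit, where 6 of 15574 genes were called (0.0385%, of which 0.0257% higher and 0.0128% lower), Mest was at -0.92 (SE 0.47) with an adjusted p of 0.6921 by edgeR, and Sfrp5 at -0.76 (SE 0.43) with 0.7136. Npr3 was at -0.13 (SE 0.32) and Bmp3 at -0.14 (SE 0.27). Levels on the scale of log2(TPM + 1), a different measure, were compared by two-sided exact permutation of the genotype within each diet. On that scale the mean difference was -0.74 for Mest, -0.72 for Sfrp5, 0.17 for Npr3 and -0.0097 for Bmp3. The exact p was 0.205 for Mest, 0.1424 for Sfrp5, 0.7641 for Npr3 and 0.9756 for Bmp3, and over the 12 tests of the members by genotype the smallest adjusted value was 0.8201.

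The members and the named lists below held no genotype call by edgeR on either diet or over both. Without the library labelled knockout HFD replicate 21, in which Tmem120a was within the control range and Mest and Sfrp5 were the highest of all 20, the HFD values were -0.89 for Mest (adjusted p = 0.5808) and -0.84 for Sfrp5 (adjusted p = 0.6215) by edgeR. Without the library labelled knockout LFD replicate 7, the LFD values were -1.19 for Mest and -1.07 for Sfrp5 by edgeR, and Npr3 turned to 0.03. Other omissions made the values smaller. Without knockout HFD replicate 20 the HFD values were -0.35 for Mest and -0.13 for Sfrp5, and without control LFD replicate 5 the LFD values were -0.37 and -0.69. Over all omissions of 1 library Mest ranged from -0.89 to -0.35 on HFD, from -1.73 (without knockout LFD replicate 8) to -0.37 on LFD and from -1.13 to -0.50 over both diets. Sfrp5 ranged from -0.84 to -0.13, from -1.61 to -0.69 and from -0.99 to -0.55.

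All 4 genes varied more between mice of one group than most genes did. The SD of log2(TPM + 1) within groups was 1.28 for Mest, larger than that of 97.3% of 15574 genes. It was 1.07 for Sfrp5 (95.8%), 1.02 for Npr3 (95.2%) and 0.71 for Bmp3 (89.5%), against a median of 0.34 over all genes.

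This variation was shared in part, least by Npr3. Over the 20 libraries Mest and Sfrp5 had a Pearson r of 0.961 (Spearman's rho of 0.955), and after subtraction of the 4 group means, so that neither diet nor genotype entered, r was 0.906. Mest and Bmp3 had r = 0.893 (rho = 0.859) and 0.859 after subtraction. Sfrp5 and Bmp3 had r = 0.901 (rho = 0.913) and 0.865. The 3 pairs with Npr3 were looser, with r = 0.820 (rho = 0.863) to Mest, 0.740 (rho = 0.800) to Sfrp5 and 0.879 (rho = 0.783) to Bmp3, and 0.7096, 0.551 and 0.780 after subtraction. The libraries fall into LFD and HFD clusters, so r was also taken within each diet (n = 10). It was 0.957 on LFD and 0.908 on HFD for Mest and Sfrp5, 0.824 and 0.811 for Mest and Bmp3, and 0.664 and 0.660 for Mest and Npr3. Sfrp5 and Bmp3 gave 0.754 and 0.945. On HFD Npr3 ran apart from Sfrp5 (0.342) and from Bmp3 (0.298), against 0.615 and 0.929 on LFD.

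Control LFD replicate 4 ranked 1 from below in each gene, and the library labelled knockout HFD replicate 21 had the highest mean rank, 19.25 of 20. Without the 2 libraries farthest from the median of the first gene of a pair, r was 0.951 for Mest and Sfrp5, 0.868 for Mest and Bmp3, 0.792 for Mest and Npr3, 0.912 for Sfrp5 and Bmp3, 0.708 for Sfrp5 and Npr3, and 0.744 for Npr3 and Bmp3 (n = 18), so that only the last pair, at 0.879 over all 20 libraries, moved by more than 0.1. With the group means subtracted, single libraries mattered more for Npr3. Over all omissions of 1 library its residual r ranged from 0.487 to 0.748 with Mest, 0.37 to 0.607 with Sfrp5 and 0.56 to 0.832 with Bmp3. The lowest residual r was 0.892 for Mest and Sfrp5, 0.771 for Mest and Bmp3 and 0.828 for Sfrp5 and Bmp3. The points share library, depth and the cell makeup of the fat pad, and they are described without a test.

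**Figure D3:**
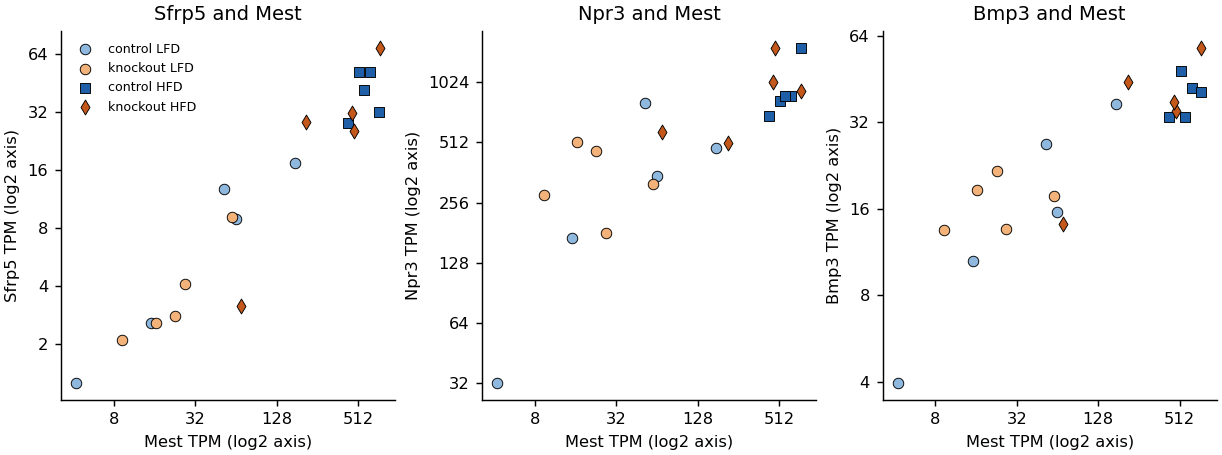
TPM of Sfrp5, Npr3 and Bmp3 against TPM of Mest in the 20 libraries, both on log2 axes, with groups by colour and shape. Sfrp5 follows Mest within each diet (r = 0.957 on LFD and 0.908 on HFD), and Npr3 is the most scattered (0.664 and 0.660).

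The summed TPM of some cell types ran with the members as well. The residual r with Mest, after subtraction of group means, was 0.734 for the sum of 5 endothelial markers and 0.746 for 5 macrophage markers, against 0.148 for 12 white adipocyte markers, -0.088 for 9 markers of fat progenitors and fibroblasts, -0.510 for 7 lymphocyte markers, -0.125 for 10 muscle fibre markers and -0.339 for 7 epithelial markers. The residual r of the white adipocyte sum was 0.308 with Sfrp5, 0.306 with Bmp3 and -0.159 with Npr3. Over all 20 libraries, with the diets included, its r with Mest was 0.708. That sum is weighted to Fabp4, which alone averaged 17305 TPM. Control LFD replicate 4, the lowest in the members, also had the lowest endothelial sum (85.8 TPM) and the lowest macrophage sum (117 TPM) of its group, while its white adipocyte sum of 25492 TPM was the highest of the group. From LFD to HFD the median endothelial sum went from 146 to 216.5 TPM in control mice and from 134 to 188.5 TPM in knockout mice. The median white adipocyte sum also went up, from 24640 to 30199 TPM in control mice and from 19313 to 31123 TPM in knockout mice. Of all genes 4.42% were called higher on HFD in control mice and 4.55% in knockout mice by edgeR. The median log2 fold change was 0.465 and 0.351 for the endothelial markers, and 0.275 and -0.0606 for the macrophage markers. By edgeR 2 of 5 endothelial markers rose in control mice (Cdh5 by 0.66, Tie1 by 0.61) and 0 of 5 in knockout mice. Among the macrophage markers Itgax (0.92) and Cd68 (0.89) rose in control mice and 0 of 5 in knockout mice. In knockout mice Cdh5 was at 0.56 (adjusted p = 0.101) and Cd68 at 0.58 (adjusted p = 0.1162) by edgeR. There 2 and 1 markers had an unadjusted p under 0.05, and DESeq2 called Cdh5 and Cd68 and limma none. The difference between the genotypes was not tested. Of these calls in control mice, Cdh5 (adjusted p of 0.1032 to 0.1554 by edgeR, without LFD replicate 2, 3 or 5 or HFD replicate 12, 13 or 15), Tie1 (0.1021 to 0.1081, without LFD replicate 3 or HFD replicate 12 or 13) and Cd68 (0.1011 to 0.1086, without LFD replicate 2 or 5 or HFD replicate 12) were lost without 1 library, and so they were with length offsets (Cdh5, Cd68) or with all 20 libraries in 1 fit (Tie1). No marker was at 0 in every library of a group, except 1 of the 7 epithelial markers in 3 groups. The part of cell makeup in the shared variation of the members was not tested.

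The genes whose levels ran most like Mest over the 20 libraries (of 13976 genes that averaged at least 1 TPM) were Serpine2 (r = 0.967), a protease inhibitor, Lep (0.966), which encodes the hormone leptin, Sod3 (0.965), the extracellular superoxide dismutase, Ptrf (0.962), a coat protein of caveolae, and Fam102b (0.962). Sfrp5 was 8 in that order, Bmp3 180 and Npr3 617. For Sfrp5 the first gene was Mest itself, followed by Prelp (0.955), Serpine2 (0.955), Cd59a (0.946), Itih5 (0.945) and Sparc (0.943), most of which encode matrix or cell surface proteins. For Bmp3 they were Hipk3 (0.956), Itih5 (0.952), Tln2 (0.951), Aplp2 (0.939) and Aldh1a1 (0.937). For Npr3 they were Tmem65 (0.958), Tbl1x (0.958), Spnb2 (0.957), Kpna4 (0.957) and Col15a1 (0.955), and Mest came at 586 in the order for Npr3.

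With the group means subtracted the nearest genes were partly others. Akap2 (r = 0.931), Prelp (0.910), Rap1gap2 (0.906), Itih5 (0.904) and Kirrel (0.897) were nearest to Mest, with Sfrp5 at rank 4 when members are counted. Prelp (0.917), Hip1 (0.907), Serpine2 (0.904), Gstm6 (0.889) and Plce1 (0.885) were nearest to Sfrp5, and Itih5 (0.942), Prelp (0.931), Synpo2 (0.928), Hipk3 (0.927) and Wwtr1 (0.921) to Bmp3. Trim44 (0.961), Col15a1 (0.958), Rps6ka3 (0.954), Dnajb14 (0.944) and Klhl5 (0.941) were nearest to Npr3. In that order Bmp3 came at 617, Mest at 1143 and Sfrp5 at 2436. Prelp and Itih5, a matrix proteoglycan and a protein that binds hyaluronan, were both among the 5 nearest to Mest and to Bmp3, and Prelp was also the nearest to Sfrp5, while none of the 5 genes nearest to Npr3 appeared for another member.

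The transcripts behind the members were examined next. Mest RNA was assigned almost wholly to the main start, whose window holds 11 CpG. The transcript that begins at position 30688063 (ENSMUST00000063387, 12 exons) held 97.5% ± 1.88 of Mest TPM in control mice on LFD and 96.2% ± 2.44 on HFD, and 96.9% ± 4.04 and 96.4% ± 3.63 in knockout mice (SD, n = 5). The lowest share in any library was 91.95%. Transcripts from the upstream start, whose window holds 0 CpG, were above 0 in 5 of 20 libraries and reached at most 1.52 TPM. The shares of the 3 other Mest transcripts with a mean of at least 1 TPM reached at most 5.49% in any library. Copg2, on the opposite strand, overlaps the last 904 bases of Mest, and the sources used here do not say whether Salmon was run with the strand.

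Npr3 RNA was split between both annotated transcripts. The full-length transcript (ENSMUST00000066529) starts at position 11835429 and has 1608 coding bases in 8 exons. The shorter one (ENSMUST00000166514) starts at position 11820743 in what is the second intron of the full-length transcript, lacks its first exons and has 465 coding bases. In control mice the full-length transcript held 149 ± 103 TPM on LFD and 356 ± 56.0 TPM on HFD, and the shorter one 219 ± 199 and 601 ± 280 TPM (SD, n = 5). In knockout mice the full-length transcript held 130 ± 35.2 and 275 ± 105 TPM, and the shorter one 221 ± 136 and 635 ± 347 TPM. Both were thus higher on HFD, and the full-length share was 46.1% ± 9.397 on LFD and 38.9% ± 7.54 on HFD in control mice and 41.1% ± 14.6 and 31.6% ± 8.42 in knockout mice.

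None of the differences between shares passed the test. For the full-length Npr3 transcript the exact permutation p was 0.246 for diet in control mice (difference of -7.15 percentage points), 0.254 for diet in knockout mice (-9.58 points), 0.1825 for genotype on HFD (-7.34 points) and 0.5714 for genotype on LFD (-4.91 points). The smallest of the 24 p-values, 0.04762 by exact permutation, belonged to a Mest transcript with a share near 1% (ENSMUST00000149496, diet in control mice), and after adjustment over the 24 tests the smallest was 0.7619. The smallest p that 5 libraries against 5 allow is 0.00794. The split of Npr3 reads rests on Salmon's assignment between overlapping models, in which the shorter one ends 2364 bases earlier, so a share is an estimate.

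**Figure D4:**
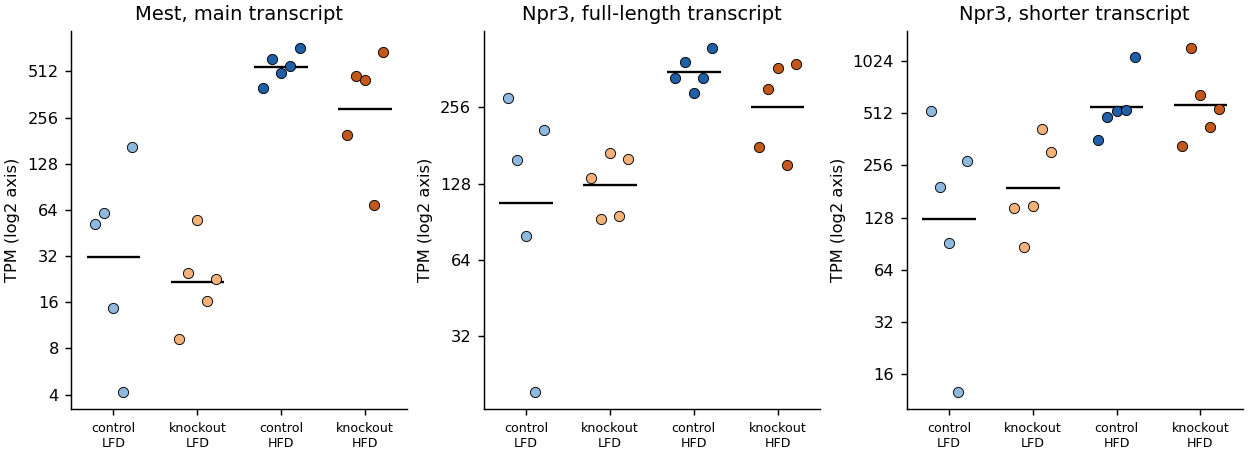
TPM on a log2 axis of the main Mest transcript, the full-length Npr3 transcript and the shorter Npr3 transcript in each library (points), with the geometric mean of each group (lines). Both Npr3 transcripts are higher on HFD, at arithmetic group means of 275 to 356 TPM for the full-length and 601 to 635 TPM for the shorter one.

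The pathways around the members were compared with the diet by lists of genes that did not include the members. In control mice 1427 of 15311 genes were called (9.32%), 4.42% higher and 4.9% lower, and in knockout mice 1476 of 15705 (9.4%), 4.55% higher and 4.85% lower. Here "called" and "not called" refer to edgeR unless another tool is named. The median log2 fold change of all genes was -0.04 and 0.00. By limma on log2(TPM + 1) the split was 1640 higher and 363 lower in control mice (676 and 751 by edgeR) and 815 and 520 in knockout mice (714 and 762), with medians of 0.13 and 0.08.

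Of 8 other genes known from adipocyte expansion, 5 rose on HFD in control mice and 6 in knockout mice, and none fell, with medians of 0.87 and 0.98. An unadjusted p under 0.05 was reached by 7 and 8 of them by edgeR, and DESeq2 called 7 and 8 and limma 7 and 6. Lep rose by 2.10 (SE 0.38, adjusted p = 0.0105) in control mice and by 2.41 (SE 0.33, adjusted p = 0.0026) in knockout mice by edgeR. Its mean went from 169 ± 97.4 to 804 ± 130 TPM and from 120 ± 35.0 to 688 ± 337 TPM (SD, n = 5), without overlap in either genotype. Nkd1, an inhibitor that Wnt signals induce, is also on this list and is described with the Wnt genes, and the other 6 are genes of caveolae, the pits of the adipocyte membrane. Ptrf rose by 0.92 and 1.12, Prkcdbp by 1.08 and 1.06, Cav1 by 0.82 and 0.89, and Cav2 by 0.46 (not called) and 0.80. The call of Cav1 in control mice was lost without LFD replicate 2, 3 or 5 or HFD replicate 12 or 15 (adjusted p between 0.1016 and 0.1149 by edgeR), and that of Cav2 in knockout mice without LFD replicate 6, 7 or 8 or HFD replicate 18 or 19 (0.111 to 0.1506). Without control LFD replicate 1, Cav2 was called in control mice too, at 0.82. Lep, Ptrf and Prkcdbp were called under every alternative run. Since Lep and Ptrf were also near the top in likeness to Mest, their rise is not separate from that order.

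Among the neighbours of Mest and other imprinted genes of growth, 3 of 16 tested rose and 2 fell in control mice, and 5 of 17 rose in knockout mice. Klf14, a transcription factor gene that lies 208 kb from Mest and is expressed from the maternal copy, rose by 2.18 (SE 0.65) in control mice, a call lost (adjusted p between 0.114 and 0.1665 by edgeR) without LFD replicate 2 or 3 or HFD replicate 12, 13, 14 or 15. It rose by 2.94 (SE 0.53) in knockout mice. It was weak, between 0.257 and 3.87 TPM on LFD and between 2.49 and 13.9 TPM on HFD, without overlap within a genotype. Copg2, which adjoins and overlaps Mest, was at 0.09 (SE 0.12) and 0.24 (SE 0.11) and was not called in either genotype by edgeR, while limma called it in control mice (0.46, adjusted p = 0.03059). Tsga14, 29.8 kb from Mest, rose by 0.84 in control mice and was at 0.48, not called, in knockout mice. The call of Tsga14 was lost with length offsets (0.56, adjusted p = 0.1857 by edgeR).

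Away from the Mest locus, Peg3, a paternally expressed zinc finger gene, rose by 1.83 (SE 0.30) and 1.78 (SE 0.41) and went from means of 19.99 and 16.5 TPM to 78.2 and 59.4 TPM in control and knockout mice. H19, a maternally expressed non-coding RNA, rose by 1.299 in knockout mice and was at -0.78, not called by edgeR, in control mice, and the difference between them was not tested. Sgce (0.52) and Grb10 (0.44) rose in knockout mice, and Slc38a4 (-0.99) and Cdkn1c (-0.83) fell in control mice. Without single libraries the calls of H19 (knockout LFD replicate 6, 7, 8 or 10 or HFD replicate 19 or 20, adjusted p of 0.1028 to 0.12 by edgeR), Sgce (any 1 of 8, 0.135 to 0.2234: LFD replicates 6 to 9, HFD replicates 17, 18, 19 and 21), Grb10 (LFD replicate 6, 0.131) and Slc38a4 (LFD replicate 3, 4 or 5 or HFD replicate 11, 12, 14 or 15, 0.1066 to 0.142) were lost, while H19 was called as lower in control mice without LFD replicate 1 (-0.90) or 2 (-0.92), by DESeq2 (-0.78, adjusted p = 0.04417) and with length offsets (-0.83). The knockout call of H19 and the call of Slc38a4 were also lost by limma and with length offsets, that of Cdkn1c by limma (-0.58, adjusted p = 0.1015), that of Grb10 with length offsets, and that of Sgce with length offsets, with RLE size factors and with no filter. Peg3 was called under every alternative. The medians of the list were 0.15 and 0.28.

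Of the Wnt pathway, in which Sfrp5 acts, no ligand was called by edgeR among 7 tested in either genotype, with 1 at an unadjusted p under 0.05 in each, 0 called by DESeq2 and 1 by limma in each. The most abundant, Wnt5a, was at 0.38 and 0.16, and Wnt5b at -0.79 and -0.69, in control and knockout mice, and without control LFD replicate 1 both were called in control mice, at 0.64 and -0.92. By limma Wnt5a was called there with all libraries (0.67). Of 15 receptors, Ror1, a receptor for Wnt5a, fell in both genotypes (-0.91 and -0.72), although the call was lost in control mice without LFD replicate 2 (adjusted p = 0.1047 by edgeR) and in knockout mice without any library but HFD replicate 19 (0.1023 to 0.1688). DESeq2 called 2 receptors in control and 4 in knockout mice, Ror1 included, and limma 1 and 0. Among the antagonists, Sfrp4, a relative of Sfrp5, rose by 0.86 (SE 0.17) in knockout mice and was at 0.40, not called, in control mice, and Sfrp2 was at -0.73 and 0.10, not called by edgeR, while DESeq2 called it in control mice (adjusted p = 0.08081). Dkk3 fell by 0.72 in control mice and Znrf3 by 0.69 in knockout mice, calls lost without control LFD replicate 2 or 5 or HFD replicate 12 (adjusted p of 0.1024 to 0.1102 by edgeR) and without knockout LFD replicate 6, 7, 8 or 9 or HFD replicate 17, 19 or 20 (0.125 to 0.18). By limma the calls of Ror1 in both genotypes, Dkk3 and Znrf3 were lost, and with no filter those of Ror1 in knockout mice and Znrf3, the latter also with length offsets. Of 9 Wnt targets and nuclear factors, the transcription factor genes Tcf7l2 (-1.31 and -1.56) and Tcf7l1 (-1.16 and -1.41) fell in both genotypes and Nkd1 rose (1.58 and 1.36), in knockout mice not without LFD replicate 6 (adjusted p = 0.1116 by edgeR). Tcf7l2 was called under every alternative, and Tcf7l1 in knockout mice was not called with length offsets (-0.75) or by limma (-0.60). The knockout call of Nkd1 was also lost by limma. Axin2, a general Wnt target, was at 0.29 and 0.45 and was called in knockout mice only without HFD replicate 19 (0.61).

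In the natriuretic peptide system the signalling receptors were weak beside Npr3. Npr1 was at 6.69 ± 0.94 TPM on LFD and 4.92 ± 1.56 TPM on HFD in control mice, where Npr3 held 368 and 957 TPM, and Npr2 was at 12.6 ± 3.84 and 9.05 ± 2.01 TPM (SD, n = 5). Npr2 fell by 0.49 (SE 0.14) in control mice and was at -0.43, not called, in knockout mice, and Npr1 was at -0.41 and -0.23, not called by edgeR, although by DESeq2 (adjusted p = 0.05606), with length offsets (-0.63) and without control LFD replicate 1 (-0.48) or HFD replicate 11 (-0.47) it was called in control mice. The call of Npr2 was lost without LFD replicate 2 or 5 or HFD replicate 12, 13, 14 or 15 (adjusted p of 0.1035 to 0.1345 by edgeR). The sole other call among 7 tested in control mice was Ostn, which encodes musclin, a peptide of muscle that binds Npr3. It fell by 3.95 at a mean of 1.03 TPM on LFD, in the group whose replicate 5 held the most muscle RNA. In the same comparison 9 of the 10 muscle fibre markers fell by edgeR, while DESeq2 called 4 and limma 1. The call of Ostn was lost without LFD replicate 3 or HFD replicate 11, 13, 14 or 15 (adjusted p of 0.1562 to 0.1867 by edgeR). Ostn averaged at least 0.5 TPM, and so was tested, in only 9 of the 10 fits without 1 library. The calls of Npr2 and Ostn were also lost by limma, with no filter and with all 20 libraries in 1 fit, and that of Ostn with length offsets. In knockout mice 0 of 8 natriuretic peptide genes and 0 of 10 muscle fibre markers were called by edgeR, DESeq2 or limma, or had an unadjusted p under 0.05.

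No other BMP family ligand was called by edgeR among 8 tested in control and 9 in knockout mice, with 1 and 2 at an unadjusted p under 0.05. DESeq2 called Gdf3 in control and Bmp2 in knockout mice, and limma 1 and 0. Inhbb was at 0.06 and 0.41, and Gdf10, the relative of Bmp3 also known as Bmp3b, at 0.25 and 0.21, and Inhbb was called in knockout mice only without HFD replicate 18 (0.50). Of the receptors and Smads, Acvr1b, a type I activin receptor, rose by 0.60 and 0.68, and Smad9 fell by 1.20 in control mice. Of the antagonists and targets, Fstl3, a secreted inhibitor of activin and myostatin, rose by 1.76 (SE 0.25) in control mice and by 1.26 (SE 0.31) in knockout mice, and Id4 fell by 0.91 in control mice. Of the 11 tested in each genotype, DESeq2 called 3 in control and 2 in knockout mice, with Id4 in both. Lost without 1 library were the calls of Acvr1b in knockout mice (LFD replicate 6, 8 or 10 or HFD replicate 18 or 19, adjusted p of 0.1048 to 0.1557 by edgeR), Smad9 (LFD replicate 2, 3 or 5 or HFD replicate 11, 12, 13 or 15, 0.1107 to 0.1548), Id4 (LFD replicate 2, 0.1002) and Fstl3 in knockout mice (LFD replicate 6, 0.1123). The call of Smad9 was also lost by limma and with no filter, and that of Id4 with all 20 libraries in 1 fit. Smad9 averaged at least 0.5 TPM, and so was tested, in only 9 of the 10 fits without 1 library. Fstl3 went from 2.98 ± 1.19 to 10.5 ± 1.06 TPM in control mice (SD, n = 5).

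**Figure D5:**
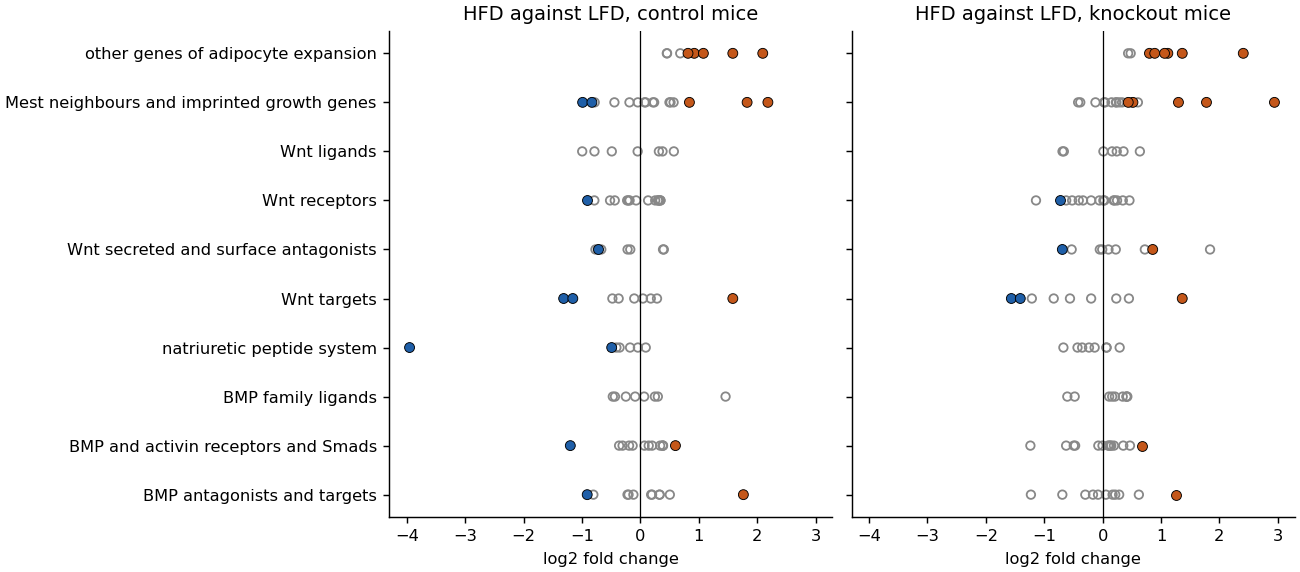
Log2 fold change of HFD over LFD for each tested gene of 10 pathway lists in control mice (left) and knockout mice (right), with called genes filled (orange higher, blue lower) and the others open. Calls on the list of expansion genes are all to the right, 5 of 8 and 6 of 8, and the Wnt and BMP ligands hold none.

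Of the white adipocyte markers 0 of 12 were called in control mice by edgeR, with a median of 0.13 (2 at an unadjusted p under 0.05, 1 called by DESeq2 and 4 by limma). In knockout mice, where the median was 0.42, Pparg (0.46) was the single call by edgeR. There 5 of the 12 had an unadjusted p under 0.05, and DESeq2 called 5 and limma 4. Of the progenitor and fibroblast markers Col1a1 fell in both genotypes (-0.90 and -0.91), Pdgfra fell in control mice (-0.72), and Pi16 (0.96) and Cd34 (0.69) rose in knockout mice. Among the other lists Epcam fell in control mice (-0.70) and Cd3e fell in knockout mice (-1.27), and 0 of 7 lymphocyte markers were called in control mice by edgeR, DESeq2 or limma, or had an unadjusted p under 0.05. In knockout mice the lymphocyte markers had a median of -0.51. There 3 of 7 had an unadjusted p under 0.05, and DESeq2 called 3, Cd3e included, and limma 1. Lost without 1 library were the calls of Pparg (knockout LFD replicate 6, 7 or 9 or HFD replicate 18, 19 or 21, adjusted p of 0.1112 to 0.1642 by edgeR), Epcam (control LFD replicate 2 or 3 or HFD replicate 12, 0.1286 to 0.1549) and Cd3e (knockout LFD replicate 6, 9 or 10 or HFD replicate 17, 18, 19 or 21, 0.131 to 0.1862). By limma both calls of Col1a1 were lost (-0.67, adjusted p = 0.1054, and -0.73, adjusted p = 0.128), as was that of Epcam. With all 20 libraries in 1 fit those of Epcam and Cd3e were lost, the latter also with no filter.

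Between genotypes no list held a call by edgeR. On the 10 pathway lists 12 of 104 genes on HFD had an unadjusted p under 0.05 by edgeR, against 709 of all 15228. On LFD they were 6 of 101, against 803 of all 15717, and over both diets 8 of 105, against 1159 of all 15574. The list of BMP antagonists and targets held 5 of 11 on HFD, 1 of 11 on LFD and 4 of 12 over both diets. On the pathway lists DESeq2 called H19 on HFD and Id4 over both diets, and limma called 0. Over both diets the medians were -0.24 for the expansion genes, -0.05 for the imprinted genes, 0.23, 0.04, 0.24 and 0.10 for the Wnt ligands, receptors, antagonists and targets, 0.07 for the natriuretic peptide genes, and 0.10, 0.05 and -0.03 for the BMP ligands, receptors and antagonists, against -0.01 for all genes. Lep was at -0.39 (SE 0.25) and Cav1 at -0.20 (SE 0.14). The muscle fibre markers had a median of 2.10 over both diets and 5.50 on HFD, with 0 of 10 called by edgeR or limma, while on HFD all 10 had an unadjusted p under 0.05 and DESeq2 called 9.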

How the data were processed

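Total RNA of iWAT, depleted of ribosomal RNA, was sequenced from 20 mice in 4 groups of 5. Per the labels STAR 2.5.3 and Salmon 0.13.1 were used with mm9. The deposited estimated counts are Salmon's for each Ensembl transcript and were not normalized by the authors. The deposited TPM come from the same Salmon run and scale each library to a fixed total.

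Here the 96533 transcripts were summed per gene with GENCODE vM1 on the same assembly, which held 97.7% of them. Unmatched transcripts took 0.377% to 0.581% of a library's counts. Gene sums were rounded. Genes that averaged 0.5 TPM or more in a comparison entered the quasi-likelihood test of edgeR (version 4.0.16 in R 4.3.3, with TMM factors). A Benjamini-Hochberg adjusted p under 0.1 counted as a call. Total counts of 54605101 to 92387737 per library leave counting error small beside the spread between mice. The SE of a log2 fold change is its size over the square root of F. Fits were tested on simulated data. Transcript shares and members by genotype were compared by two-sided exact permutation over 252 assignments, or within both diets together, on shares or log2(TPM + 1), with SciPy 1.17.1. Correlations used log2(TPM + 1).

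The members and gene lists were chosen with earlier results of these data known. Genes named are the members, Tmem120a, per list and comparison up to 4 called genes in each direction with the largest change (where none was called, the 2 most abundant), and the 5 genes most like each member. Copg2, Tsga14, Npr1, Sfrp2, Axin2, Gdf3, Bmp2 and list members named for their values in the other genotype were added after their values were seen. For the genotype comparisons the abundant genes of most lists are given by the list medians only. Alternatives were DESeq2 (the tool of the methods, but here in version 1.42.0, which is not theirs), limma 3.58.1 on log2(TPM + 1), other size factors, no filter, length offsets, all libraries in 1 fit, and leaving out each library. The labels give no batch and do not say that the libraries of a group come from separate experiments, so p-values measure the spread between these mice. Promoter windows and coordinates come from the mm9 genome and GENCODE vM1.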

Additional observations from a re-analysis of the deposited data

Results flagged for a closer look

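In 2 of 16 groups of 5 values (4 genes in 4 groups) 1 library stood apart from the others by Dixon's test at the 95% level, which flags about 1 group in 20 by chance. Sfrp5 reached 9.168 TPM in knockout LFD replicate 8, with the gap to the next library taking 0.72 of the group's range. Npr3 reached 1522 TPM in control HFD replicate 15, with a gap of 0.777 of the range, and in that library the shorter Npr3 transcript held 71.3% of Npr3. Control LFD replicate 4 and knockout HFD replicate 20, which were low in Mest, Sfrp5 and Bmp3, did not pass this test on the TPM scale.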

How the results depend on the processing

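No paired analysis was possible because the groups share no replicate numbers. Log2 fold changes of the 4 members by diet kept their direction and moved by less than the SD within groups under every alternative, and no alternative called a member by genotype. DESeq2 called 100 genes by genotype on HFD (1 on the pathway lists), 17 on LFD, 32 over both diets (1 on the lists), 2205 by diet in control and 2247 in knockout mice. limma on log2(TPM + 1) called 3, 2 and 3 by genotype, and shifted the split by diet as given above. By limma Npr3 (0.46 on LFD, 0.17 over both diets) and Bmp3 (0.16 on LFD) were reversed by genotype. Without the filter 26 genes were called by genotype on HFD (1 on the lists), with length offsets 5 on HFD and 2 over both diets, and with all 20 libraries in 1 fit 3 on HFD and 2 on LFD.

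Leaving out 1 library gave 1 to 58 calls by genotype on HFD (0 to 2 on the lists, the highest without the library labelled knockout HFD replicate 21), 1 to 2 on LFD, 780 to 1845 by diet in control mice, and 753 to 1355 in knockout mice (9 to 18 on the lists, the lowest without LFD replicate 6). By genotype Npr3 ranged from -0.35 to 0.0512 on HFD, -0.40 to 0.36 on LFD and -0.26 to 0.0946 over both diets, and Bmp3 from -0.23 to 0.13, -0.45 to 0.17 and -0.25 to 0.0336. By diet Inhbb ranged from -0.0759 to 0.19 in control mice and Sfrp2 from -0.0082 to 0.26 in knockout mice. In percentage points the share of ENSMUST00000063387 ranged from -0.73 to 1.26 (genotype, HFD), -1.32 to 0.69 (genotype, LFD) and -1.75 to 0.54 (diet, knockout), that of ENSMUST00000066529 from -7.87 to 0.73 and of ENSMUST00000166514 from -0.73 to 7.87 (genotype, LFD), of ENSMUST00000130751 from -0.60 to 0.31 (genotype, LFD), of ENSMUST00000149496 from -0.0052 to 0.50 (diet, knockout), and of ENSMUST00000163949 from -0.98 to 0.58 (diet, knockout) and -1.27 to 0.44 (genotype, HFD). Levels moved within their SDs. The Pearson r of Npr3 and Bmp3 over the libraries ranged from 0.794 to 0.905, and the ranges of residual r are given with the correlations. Of 50 calls of list genes named by diet, 21 held under every alternative and 24 were lost without at least 1 library. The causes were not tested.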
